A study of Mus musculus with 14 samples.

Results

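The effect of G-CSF was measured in GFP+ osteoblast-lineage cells sorted from mouse bone. The comparison took 6 of the 14 Affymetrix arrays of the series: 3 of the GFP+ sort after G-CSF and 3 of the same sort from untreated mice. All 6 samples came from pOBcol2.3-GFP mice of the C57BL/6J strain, 6 to 8 weeks old, in which a fragment of the type I collagen promoter drives GFP, so the sort holds the cells in which that fragment is active. The genotype label of these mice reads wild type, and apart from the reporter no further allele is named. Cells were released by serial collagenase digestion and sorted as GFP+ cells without CD45, ter119 and CD31. G-CSF was given at 250 ug per kg under the skin for 5 days, per the titles. The protocol text of the untreated arrays reads 7 days. A CD31+ endothelial sort, with 4 untreated and 4 G-CSF arrays, served as the second population. Its mice were also 6 to 8 weeks old, and the dose and the days of G-CSF were labelled as for the GFP+ sort. The labels do not say whether replicates are separate animals, so the p-values speak of array-to-array spread, which may be technical. Of 18193 gene symbols on the array, 13453 passed a filter on dim probe sets and were tested. That filter used the mean over all 14 arrays, so a gene near background in untreated cells could pass through its G-CSF arrays alone.

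G-CSF is the cytokine that drives neutrophil production, and its receptor, Csf3r, signals through JAK kinases and STAT3 in myeloid cells. Given over several days it releases blood stem cells from the marrow, and this release is known to come with a loss of osteoblasts and of Cxcl12, the chemokine that holds stem cells in place. Stromal cells around marrow vessels, the adipogenic reticular cells, supply Cxcl12, stem cell factor and interleukin 7, and express adiponectin and leptin receptor. Values below are log2 of intensity plus 16, changes are G-CSF minus untreated on that scale with their SE, and folds on it understate the change of dim genes. Arrays are called untreated 1 to 3 and G-CSF 1 to 3.

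Bone genes were abundant on all 6 arrays. Sparc, a matrix protein of bone, read 15.94, 15.81 and 16.30 in the untreated arrays and 15.82, 15.92 and 15.96 after G-CSF. Col1a1, the main collagen chain of bone and the gene whose promoter drives the reporter, read 15.03 to 16.06 untreated and 15.45 to 15.85 after G-CSF. The 15 measured endothelial markers averaged 8.57 to 9.74 per array, against 12.56 to 13.08 in the CD31+ sort. Of 22 listed genes of bone matrix and mineralisation 14 were measured, and Bglap, Runx2 and Spp1 were not analysed here.

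Untreated 2 stood apart by its blood-cell RNA. Neutrophil primary granule genes, such as Mpo and Ctsg, averaged 14.06 there against 9.10 and 9.68 in untreated 1 and 3, and 12.41, 13.34 and 12.95 after G-CSF. Secondary granule genes averaged 13.73 against 11.34 and 10.66, and 13.94, 13.54 and 12.63 after G-CSF. In both granule lists untreated 2 thus lay within or above the G-CSF arrays. Mature neutrophil genes averaged 11.36 in untreated 2 against 9.09 and 8.80, and 12.19, 11.57 and 10.84 after G-CSF. There G-CSF 1 and G-CSF 2 were above untreated 2. The monocyte and macrophage list averaged 10.22 in untreated 2 against 7.64 and 7.53, and 9.22, 9.59 and 8.62 after G-CSF. B lineage genes averaged 9.58 in untreated 2 and between 6.38 and 7.07 on the other 5 arrays. Erythroid genes averaged 10.60 in untreated 2, 8.53 and 8.83 in untreated 1 and 3, and 7.01, 7.77 and 6.68 after G-CSF. In all 1298 of the 13453 genes were at least 1 log2 unit higher in untreated 2 than in both other untreated arrays, and 793 at least 1 lower. Counts of called genes are therefore given with all arrays and without untreated 2.

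**Figure D1:**
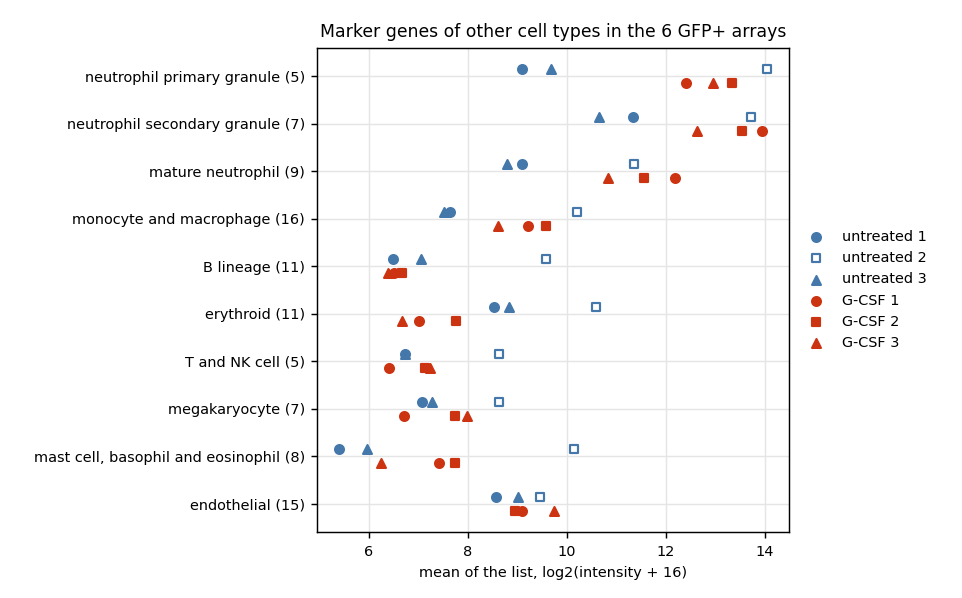
Mean log2 intensity of 10 marker lists of other cell types (measured members in brackets) in each of the 6 GFP+ arrays. Blue marks are untreated, red marks G-CSF, and the shape gives the replicate number. Untreated 2, the open square, is the highest untreated array in all 10 lists and lies among or above the G-CSF arrays in the neutrophil lists.

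With all arrays 25 genes rose (0.186% of genes tested) and 6 fell (0.0446%) by limma's moderated test at an adjusted p under 0.05. With replicate number as a block 45 rose (0.334%) and 19 fell (0.141%). Without untreated 2 the counts were 426 (3.17%) and 49 (0.364%), and all 31 genes called with all arrays were among them. The median change over all genes was -0.04 with all arrays and -0.03 without untreated 2, with 6128 positive and 7325 negative changes in the former. All 3 G-CSF arrays lay above all 3 untreated arrays for 485 genes (3.61%) and below them for 765 (5.69%).

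Promoter sequence is shown for 5 of the risen genes, because G-CSF signals through STAT3 and STAT factors bind palindromes of the form TTCNNNGAA. The letters searched were TTCNNNGAA, which reads the same on both strands. They were searched in windows from 250 bases before to 50 bases after each start of transcription in RefSeq, build GRCm38.p6. Of the 25 risen genes 23 had such a window, and 4 of them, Ada, Csf2rb2, Il1r2 and Myd88, held the letters in at least 1 window (17.4% of genes), as did 8.2% of the 10833 tested genes with a window. Of the 6 fallen genes 5 had a window and 1 of them, Cyp4b1, held the letters (20.0%). Over all 32851 windows of this length the share was 8.3%. A match is a description of the letters and not a binding site. The 120 bases before the start are printed 5′ to 3′ on the gene's strand with matches in capitals. Ada lies at chr2:163750240-163750359 (minus strand), Csf2rb2 at chr15:78305722-78305841 (minus), Il1r2 at chr1:40085973-40086092 (plus) and Myd88 at chr9:119340019-119340138 (minus). Ifitm1, the gene with the smallest p among the risen genes, lies at chr7:140967956-140968075 (plus) and is shown for contrast, with no match.
Ada: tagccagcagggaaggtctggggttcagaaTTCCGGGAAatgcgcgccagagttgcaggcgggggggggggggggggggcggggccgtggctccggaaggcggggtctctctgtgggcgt
Csf2rb2: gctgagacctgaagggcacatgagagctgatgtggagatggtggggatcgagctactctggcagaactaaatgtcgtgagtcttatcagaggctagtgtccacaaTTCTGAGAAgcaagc
Il1r2: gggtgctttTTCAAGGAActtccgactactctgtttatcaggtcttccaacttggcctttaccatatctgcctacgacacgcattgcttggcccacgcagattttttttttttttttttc
Myd88: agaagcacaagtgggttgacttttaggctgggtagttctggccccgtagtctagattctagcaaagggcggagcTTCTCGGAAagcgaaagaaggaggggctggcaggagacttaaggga
Ifitm1: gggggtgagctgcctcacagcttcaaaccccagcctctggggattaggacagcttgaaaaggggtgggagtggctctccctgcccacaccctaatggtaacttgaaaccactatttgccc

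For 12 of the 25 risen genes untreated 2 exceeded the higher of the other untreated arrays by at most 0.5 log2 units. Ifitm1 (Entrez 68713), an interferon-induced membrane protein, read 11.10, 10.76 and 10.75 untreated and 14.65, 14.76 and 13.53 after G-CSF. Every G-CSF array was above every untreated array by more than the spread of either group (change 3.44 ± 0.32, 10.9-fold, adjusted p = 0.000258). Stfa3 (Entrez 20863), a stefin A inhibitor of cysteine proteases, read 5.89, 5.92 and 4.47 untreated and 10.77, 11.31 and 8.78 after G-CSF. Prok2 (Entrez 50501), a secreted peptide, went from 5.22, 5.63 and 5.94 to 10.27, 9.44 and 8.77. Asprv1, a retroviral-like aspartic protease, went from 6.88, 7.25 and 6.33 to 12.04, 10.14 and 9.39. For these 4 genes untreated 2 lay within 0.4 of the higher of the other untreated arrays.

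The others of these 12 genes were spread over several roles. Saa3, an acute phase apolipoprotein, read 9.07, 8.33 and 8.13 untreated and 12.30, 11.94 and 10.95 after G-CSF. Lipg, or endothelial lipase, an enzyme that acts on the phospholipids of lipoproteins, read 6.77, 6.92 and 6.89 untreated and 10.84, 9.75 and 9.24 after G-CSF (change 3.08 ± 0.59, 8.46-fold, adjusted p = 0.0498). The untreated values of Lipg were nearly level, untreated 2 included. Klra17, a lectin-like receptor of the Ly49 family, went from 5.96, 5.87 and 4.93 to 9.06, 8.77 and 7.20 (change 2.75 ± 0.50, adjusted p = 0.0367). Spint1, a membrane inhibitor of the protease that activates hepatocyte growth factor, went from 5.91, 6.19 and 5.53 to 7.70, 7.43 and 7.96 (change 1.82 ± 0.29, adjusted p = 0.0169). Myd88, the adaptor of Toll-like and interleukin 1 receptors, had the smallest change of the 25, from 10.86, 10.91 and 11.09 to 12.11, 11.81 and 11.67 (change 0.91 ± 0.18, adjusted p = 0.0498). Upp1, which splits uridine, had a change of 1.84 ± 0.32 (adjusted p = 0.0277), Ada, which deaminates adenosine, of 1.87 ± 0.33 (0.0344), and Ppp1r3d, which targets a phosphatase to glycogen, of 1.59 ± 0.30 (0.0418). Groups did not overlap for any of the 12. Of the 12, Ifitm1 and Asprv1 kept their call without any 1 GFP+ array. The largest adjusted p of the others came without untreated 3 for Saa3 (0.169), Lipg (0.189), Klra17 (0.189), Spint1 (0.12) and Ppp1r3d (0.191). It came without G-CSF 1 for Stfa3 (0.0744), Prok2 (0.0741), Myd88 (0.166), Upp1 (0.157) and Ada (0.164).

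The other 13 risen genes were raised in untreated 2 as well, to a level between its group and the G-CSF arrays. Wfdc17, a whey acidic protein family member, read 5.12 and 5.59 in untreated 1 and 3, 9.34 in untreated 2, and 12.41, 11.98 and 10.35 after G-CSF. Il1r2, the decoy receptor of interleukin 1, read 6.69 and 7.08, then 9.13 in untreated 2, and 11.30, 10.16 and 9.92 after G-CSF (change 2.83 ± 0.52, adjusted p = 0.0418, and 0.0672 with the block). Csf2rb2, the beta chain of the mouse interleukin 3 receptor, read 7.22 and 6.30, then 8.66, and 10.60, 9.81 and 10.04 after G-CSF (change 2.75 ± 0.53, adjusted p = 0.0498). For these 3 genes G-CSF exceeded untreated 2 on every array by less than it exceeded the other untreated arrays. Rhbdf2, which carries the protease ADAM17 to the cell surface, read 5.62 and 5.55, then 7.26, and 8.84, 8.11 and 8.49 after G-CSF (change 2.34 ± 0.37, adjusted p = 0.0169). Cd300lf, an inhibitory receptor of myeloid cells, had a change of 2.71 ± 0.43 (adjusted p = 0.0169). Cmah, which makes a sialic acid form, had a change of 2.84 ± 0.50 (0.0325). Stx11, a syntaxin of granule release, had a change of 1.81 ± 0.31 (0.0277), and Rassf2, a Ras association protein, of 1.88 ± 0.35 (0.0418). All of these values were larger without untreated 2: 6.23 ± 0.53 for Wfdc17 against 4.90 ± 0.84, and 2.89 ± 0.25 for Rhbdf2. The adjusted p without untreated 3 was 0.169 for Wfdc17, 0.191 for Il1r2 and Rassf2, 0.209 for Csf2rb2, 0.12 for Rhbdf2 and Cd300lf, 0.184 for Cmah and 0.157 for Stx11. It was 0.14 for Mgam, 0.189 for Ceacam10 and 0.221 for Slfn4, while Stfa2l1 had its highest value, 0.0654, without G-CSF 1. The part of blood-cell RNA was not tested for these 13 genes or for the 12 above. Neutrophil and monocyte lists were high in untreated 2 and after G-CSF, erythroid and B lineage lists in untreated 2 but not after G-CSF. Stefin, Ifitm, Slfn, Klra, Ceacam and Csf2rb genes have near-identical relatives whose transcripts a probe set may also bind, so the member named is uncertain.

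**Figure D2:**
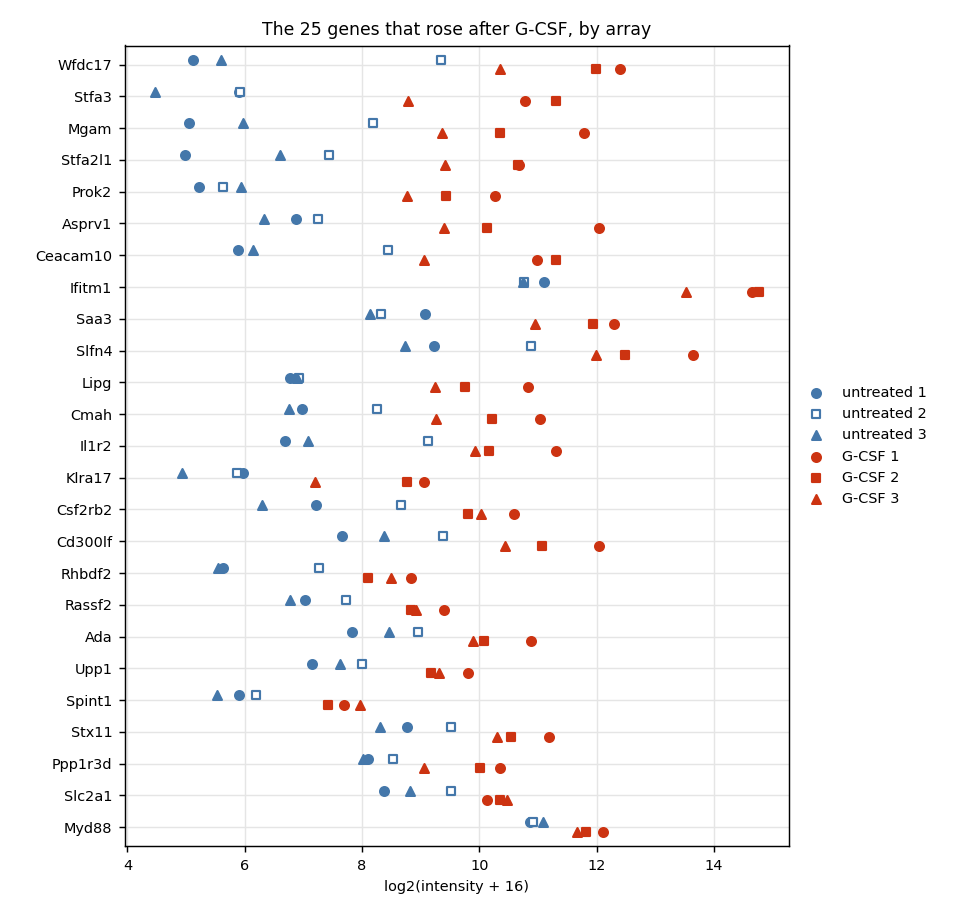
Log2 intensity of the 25 genes that rose, 1 row a gene in order of change, in the 6 GFP+ arrays (blue untreated, red G-CSF, shape by replicate number, open square untreated 2). The 3 red marks lie right of the 3 blue marks in every row; the open square sits with the other blue marks for Ifitm1, Stfa3, Prok2 and Lipg and between the groups for Wfdc17, Mgam and Il1r2.

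Left out in turn, single arrays ended most of these calls. Without untreated 1, 5 of the 25 rises were called again (Asprv1, Ifitm1, Prok2, Stfa2l1 and Stfa3), and 4 without untreated 3 (the same without Stfa3). Without G-CSF 1 only Asprv1 and Ifitm1 were called again, 5 without G-CSF 2 and 16 without G-CSF 3. All 25 were called again without untreated 2, without both arrays numbered 2, and with the blood-cell score of each array as a covariate. That score is the mean of the averages of the secondary granule, erythroid and B lineage lists. It read 11.31 in untreated 2 and from 8.57 to 9.33 on the remaining GFP+ arrays, so as a covariate it mostly marks untreated 2. Whether the calls hold with neutrophil RNA alone adjusted for was not tested. Ifitm1 was the 1 gene of the 31 that kept its call under every alternative in which single genes were followed. Leaving out single CD31+ arrays, which enter only the estimate of spread, was followed by counts alone and gave 13 to 23 rises and 5 to 9 falls, with 13 rises without untreated 1, untreated 3 or G-CSF 1 of that sort. In the CD31+ sort all 25 had a positive change and 15 were called there, where 61 genes rose (0.453%) and 154 fell (1.14%). Of the 6 genes that fell in the GFP+ sort, 2 had a positive change in the CD31+ sort and 1, Adipoq, was called lower there. Over all 13453 genes 5729 had a positive change in that sort.

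Families of genes around these calls were described by their members' counts and medians, beside a median of -0.04 over all genes. Over all genes 0.186% rose and 0.0446% fell with all arrays, and 3.17% and 0.364% without untreated 2. All G-CSF arrays lay below all untreated arrays for 5.69%. The counts of every family here and below stand beside these shares. Of 12 measured acute phase genes 1 rose with all arrays and 4 without untreated 2, and the median change was 0.98 and 0.80. Besides Saa3 these were Lcn2 (lipocalin 2, which binds bacterial siderophores), Lrg1 and Lbp, the binding protein of bacterial lipopolysaccharide. Lbp read 10.58, 10.71 and 9.81 untreated and 11.90, 11.24 and 11.14 after G-CSF, with no overlap and no high value in untreated 2 (adjusted p = 0.237, and 0.0486 without untreated 2). Lcn2, also a granule protein, was raised in untreated 2, at 14.10 against 11.54 and 11.14, and so was Lrg1, at 11.61 against 9.30 and 8.61. In all 3 of the 12 genes were at least 1 higher there. The metallothionein Mt1 had a change of 0.01 ± 0.45.

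Of 15 measured genes of the interleukin 1 system 1 rose with all arrays and 3 without untreated 2, with 13 positive changes and medians of 0.76 and 0.64. Il1f9, an interleukin 36 cytokine, read 5.52, 5.84 and 5.81 untreated and 8.41, 7.23 and 6.70 after G-CSF (adjusted p = 0.0881, and 0.0298 without untreated 2). Il1b itself read 8.44, 9.86 and 7.60 untreated and 13.08, 9.03 and 9.48 after G-CSF, so the groups overlapped and G-CSF 1 alone was far above. Of 19 Toll-like receptor and NF-kB genes 1 rose with all arrays, Myd88, and 5 without untreated 2, with 17 positive changes. Tlr1 and Cd14, receptors for bacterial lipopeptide and lipopolysaccharide, were among the 5, with changes without untreated 2 of 4.33 ± 0.57 and 3.04 ± 0.36. Cd14 was high in untreated 2 (11.58 against 8.38 and 8.31).

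The 6 measured Ifitm genes did not move together. Ifitm1 rose, Ifitm6 rose without untreated 2 (4.59 ± 0.40, adjusted p = 2.01e-05) and with the block (0.024), and Ifitm7 rose without untreated 2 (0.0384). Ifitm3 had a change of 0.39 ± 0.23 and Ifitm2 of 0.15 ± 0.34 with all arrays. Ifitm5, the bone-restricted member, read 10.77, 9.08 and 10.64 untreated and 10.18, 9.94 and 8.48 after G-CSF. Of 29 interferon-stimulated genes 0 rose and 0 fell with all arrays, and 1 rose and 0 fell without untreated 2. The 1 rise was of Oas1a, an antiviral synthetase (adjusted p = 0.00225), which read 9.21 in untreated 2 against 7.92 and 7.62, and 9.12, 9.44 and 9.25 after G-CSF. With all arrays 23 of the 29 changes were negative, and the median was -0.20, and -0.15 without untreated 2. Of 7 Schlafen genes Slfn4 rose with all arrays and Slfn2 besides it without untreated 2, and 4 were at least 1 higher in untreated 2 than in both other untreated arrays.

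Of 18 glycolysis genes 1 rose with all arrays and 6 without untreated 2, with medians of 0.57 and 0.84. Slc2a1, the glucose transporter GLUT1, read 8.37, 9.52 and 8.81 untreated and 10.13, 10.35 and 10.46 after G-CSF, with no overlap (change 1.42 ± 0.25, adjusted p = 0.0325, and 0.169 without untreated 3). Pgk1, an ATP-making step, read 11.48, 13.39 and 11.97 untreated and 13.35, 13.98 and 13.08 after G-CSF, so its groups overlapped through untreated 2. The groups of Aldoa, Pkm, Pgam1 and Pfkp, other enzymes of the path that rose without untreated 2, overlapped as well with all arrays, and 7 of the 18 genes were at least 1 higher in untreated 2. Of 17 cholesterol synthesis genes 0 were called with all arrays and 2 rose without untreated 2, with a median of 0.32. Idi1, an early step of the sterol path, read 8.64, 8.42 and 8.32 untreated and 9.65, 9.56 and 9.16 after G-CSF, with untreated 2 in the middle of its group (adjusted p = 0.0947, 0.0432 without untreated 2 and 0.0495 with the block). Of 24 respiratory chain genes and 18 cytosolic ribosomal proteins 0 were called in either fit. Their medians were 0.07 and -0.06 with all arrays and 0.23 and 0.10 without untreated 2, so the sign of the ribosomal median turned.

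Receptor and feedback genes of the G-CSF pathway were described next. Of 23 measured genes 0 were called with all arrays and 3 rose without untreated 2. Csf3r, the G-CSF receptor, read 7.64, 10.13 and 7.88 untreated and 11.48, 9.84 and 9.95 after G-CSF, with untreated 2 among the G-CSF arrays. Pim1, a kinase induced by STAT signalling, read 10.77, 11.55 and 11.48 untreated and 12.23, 12.25 and 13.09 after G-CSF, with no overlap (change 1.26 ± 0.28, adjusted p = 0.0947, and 0.0177 without untreated 2). Bcl3, a nuclear NF-kB cofactor chosen after its values were seen, read 9.05, 8.50 and 8.85 untreated and 10.17, 9.81 and 9.89 after G-CSF (adjusted p = 0.16, and 0.0495 with the block). Socs3, the feedback inhibitor of the receptor, read 14.82, 12.77 and 14.08 untreated and 14.46, 13.97 and 15.25 after G-CSF, and its groups overlapped.

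Most of the 426 rises without untreated 2 were of genes that untreated 2 carries. Of them 354 were at least 1 log2 unit higher in untreated 2 than in both other untreated arrays, and 87 had all G-CSF arrays above all 3 untreated arrays. All 5 measured primary granule genes, 6 of 7 secondary granule genes, 8 of 9 mature neutrophil genes and 7 of 16 monocyte and macrophage genes were among the rises. Ctsg read 8.53 and 9.93 in untreated 1 and 3, 13.98 in untreated 2, and 12.84, 14.01 and 13.94 after G-CSF. Acod1, which makes the antibacterial metabolite itaconate in myeloid cells, read 4.43 and 4.46, then 7.47 in untreated 2, and 10.21, 7.75 and 8.24 after G-CSF (adjusted p = 0.0904, and 0.00044 without untreated 2). The part of blood-cell RNA in these rises was not tested. In whole-sort RNA more cells of a type and more RNA per cell cannot be told apart, here and for every gene below.

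Another 72 of these rises were not raised by 1 in untreated 2, and 56 of the 72 had no overlap with all 3 untreated arrays. Over all 13453 genes 485 (3.61%) had every G-CSF array above every untreated array. The 72 were chosen as rises over untreated 1 and 3 and for no high value in untreated 2. A lack of overlap is therefore partly built into their choice. Apart from the genes above, the following were chosen after their values were seen. Anxa1, or annexin A1, which damps neutrophil entry, read 14.15, 14.17 and 14.03 untreated and 15.22, 15.09 and 15.14 after G-CSF (change 1.03 ± 0.21, adjusted p = 0.0651, and 0.0175 without untreated 2). Its spread within each group was under the distance between them. Hmgb2, a chromatin protein, read 11.19, 11.94 and 11.45 untreated and 13.41, 12.56 and 12.73 after G-CSF (adjusted p = 0.0633, and 0.0048 without untreated 2). Il4ra, a chain of the interleukin 4 receptor, went from 7.79, 8.54 and 7.62 to 10.40, 9.06 and 9.48 (0.0763 and 0.00517). Timp3, an inhibitor of matrix metalloproteases held in the matrix, was named by rule and read 12.60, 12.24 and 12.48 untreated and 13.24, 13.34 and 13.15 after G-CSF (change 0.80 ± 0.16, adjusted p = 0.0703, 0.0335 without untreated 2 and 0.0495 with the block). Untreated 2 was the lowest array for Timp3.

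Falls were led by genes of adipogenic reticular stroma. Adiponectin, Adipoq (Entrez 11450), read 12.75, 12.44 and 12.17 untreated and 9.73, 10.75 and 9.96 after G-CSF. Cyp4b1 (Entrez 13120), a cytochrome P450, read 9.24, 10.61 and 10.28 untreated and 7.11, 8.34 and 7.81 after G-CSF. Apoe (Entrez 11816), the lipid carrier, read 12.83, 13.34 and 12.85 untreated and 11.72, 11.86 and 11.55 after G-CSF. In these 3 genes untreated 2 lay with its group and no G-CSF array reached an untreated one, with changes of -2.31 ± 0.28 (adjusted p = 0.00409), -2.29 ± 0.32 (0.00845) and -1.29 ± 0.21 (0.0189). Cyp4b1 changed by close to the same amount within each replicate number, and its adjusted p with the block was 0.000401. Tmem255a, a membrane protein, read 8.87, 8.11 and 8.79 untreated and 6.64, 6.43 and 6.68 after G-CSF (change -2.01 ± 0.26, adjusted p = 0.00627). Pldi read 6.85, 6.04 and 6.93 untreated and 4.58, 4.49 and 4.46 after G-CSF, near the bottom of the scale, so its change of -2.10 ± 0.35 (adjusted p = 0.0266) is a low estimate. Prkdc, the catalytic subunit of DNA-dependent protein kinase, read 9.68, 9.87 and 9.53 untreated and 8.62, 8.55 and 8.45 after G-CSF (change -1.16 ± 0.22, adjusted p = 0.0495, and 0.0672 with the block). Adipoq and Tmem255a kept their call without any 1 GFP+ array. Without untreated 3 the adjusted p was 0.0666 for Cyp4b1 and 0.157 for Pldi and Prkdc, and without G-CSF 1 it was 0.0744 for Apoe.

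The reticular stroma list as a whole lay lower after G-CSF. Of its 24 measured genes 22 had a negative change, 3 fell with all arrays and 7 without untreated 2, and 11 had every G-CSF array below every untreated array. The median change was -0.63, and -0.86 without untreated 2. This list had been seen to fall in these data, so the counts describe it and are not independent evidence. Pparg, the master factor of fat cells, read 8.54, 8.18 and 8.21 untreated and 6.68, 6.98 and 7.72 after G-CSF (change -1.18 ± 0.26, adjusted p = 0.0922, and 0.0254 without untreated 2). Fbln5, an elastic fibre protein, read 13.71, 12.76 and 13.63 untreated and 12.23, 12.43 and 12.33 after G-CSF (change -1.04 ± 0.29, adjusted p = 0.227, and 0.00975 without untreated 2). Ebf3 and Esm1, chosen after their values were seen, had changes of -0.99 ± 0.36 and -0.84 ± 0.27 with all arrays, and fell without untreated 2 (adjusted p = 0.0335 and 0.0208). Ebf3 is a transcription factor of the reticular cells and Esm1 a secreted proteoglycan. Lepr, the leptin receptor, read 12.64, 10.42 and 12.12 untreated and 11.80, 11.18 and 11.49 after G-CSF, and its groups overlapped through untreated 2. Pdgfrb, a receptor of pericytes and stroma, had a change of 0.21 with all arrays. The adipocyte marker list moved with it: its 6 measured genes, of which Adipoq, Lpl and Pparg stand in both lists, averaged 9.85 to 10.01 in the untreated arrays and 9.09 to 9.32 after G-CSF. Of these 6 genes 1 fell with all arrays and 2 without untreated 2, 3 had every G-CSF array below every untreated one, and the median was -0.81, and -0.88 without untreated 2. The part of adipocyte RNA in the falls of the reticular stroma list was not tested. The one reticular stroma gene that rose without untreated 2 was Hp, or haptoglobin (change 1.28 ± 0.27, adjusted p = 0.016), which is also made by myeloid cells.

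Of the 16 measured niche factors 0 were called with all arrays, 2 fell without untreated 2, and the median was -0.37 and -0.58. With all arrays 5 changes were positive and 11 negative. Kitl, or stem cell factor, Vcam1 and Angpt1 were measured and were not called in either fit. Il7, which B cell progenitors need, read 10.29, 8.52 and 9.49 untreated and 8.01, 7.42 and 8.06 after G-CSF, with no overlap (change -1.60 ± 0.36, adjusted p = 0.0947, 0.00131 without untreated 2 and 0.0495 with the block). Csf1, the growth factor of macrophages and osteoclasts, read 12.51, 11.21 and 11.81 untreated and 11.04, 11.17 and 11.28 after G-CSF. Untreated 2 lay within the G-CSF arrays for Csf1, whose fall was called without it (adjusted p = 0.0178). Cxcl12 read 14.93, 14.45 and 14.58 untreated and at most 14.16 after G-CSF, so every G-CSF array was below every untreated one. That difference did not pass the test with all arrays (-0.55 ± 0.20, adjusted p = 0.373) or without untreated 2 (-0.65 ± 0.21, 0.13).

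Further falls without untreated 2 were spread over secreted signals and matrix enzymes. Of the 49 genes 37 had all G-CSF arrays below all 3 untreated arrays, 39 had untreated 2 as the lowest untreated array, and 27 were still called without both arrays numbered 2. Over all 13453 genes untreated 2 was the lowest untreated array for 5075. The 49 genes were called with untreated 2 left out, so a low value in it is partly built into their choice. Rspo2, which strengthens Wnt signals, read 11.04, 9.59 and 10.98 untreated and 8.70, 8.99 and 9.20 after G-CSF (without untreated 2, -2.05 ± 0.26, adjusted p = 0.000362). Bmp6, a bone morphogenetic protein, read 10.56, 9.85 and 10.14 untreated and 9.13, 8.84 and 8.81 after G-CSF (-1.42 ± 0.32, 0.0222). Adamts9, a protease that cleaves versican and aggrecan, read 12.88, 11.97 and 12.79 untreated and 11.32, 11.31 and 11.45 after G-CSF (-1.48 ± 0.19, 0.000452, and 0.0443 with the block on all arrays). Adamts18, of the same family, went from 8.80, 7.76 and 9.53 to 6.70, 6.61 and 6.71 (-2.49 ± 0.43, 0.00359). In each of these 4 genes the G-CSF arrays lay close together and below untreated 2, itself the lowest untreated array. Vcan, a substrate of these proteases, read 12.60, 12.04 and 12.52 untreated and 10.42, 10.07 and 10.79 after G-CSF. Its adjusted p was 0.259 with all arrays, 0.103 without untreated 2 and 0.0299 with the block. Cxcl9, an interferon-induced chemokine, went from 9.31, 8.57 and 9.17 to 7.60, 7.53 and 7.87 (-1.58 ± 0.30, 0.00687). Among the genes chosen after their values were seen, Iigp1 and Nlrc5, which interferon gamma induces, also fell without untreated 2 (-1.15 ± 0.20, 0.00459, and -1.21 ± 0.26, 0.0168). The interferon-stimulated list above holds neither these genes nor Cxcl9. Of its 29 measured genes 0 fell in either fit, and 1 rose without untreated 2. Plxna2, a semaphorin receptor, read 12.57, 11.82 and 12.42 untreated and 10.87, 10.96 and 11.81 after G-CSF (-1.28 ± 0.28, 0.0188). Fzd5, a Wnt receptor, was called without untreated 2 (-1.11 ± 0.28, 0.0446), but untreated 2, at 10.80, lay below all G-CSF arrays.

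**Figure D3:**
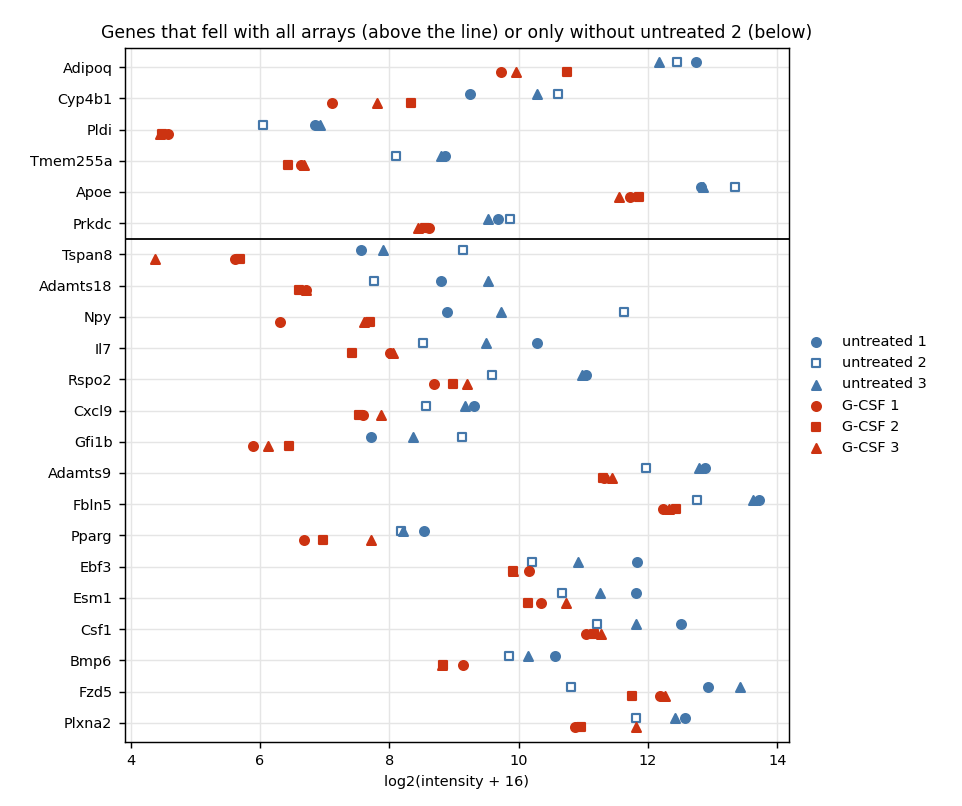
Log2 intensity of the 6 genes that fell with all arrays (above the line) and of 16 genes called lower without untreated 2 but not with all arrays (below it) in the 6 GFP+ arrays, coloured and shaped by group and replicate. Untreated 2, the open square, stays right of the red marks for most genes but lies among them for Csf1 and Esm1, level with G-CSF 3 for Plxna2 and left of them for Fzd5.

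Erythroid genes were lower after G-CSF and were also high in untreated 2. All 11 measured erythroid genes had a negative change, 9 had every G-CSF array below every untreated array, and the median was -2.26 with all arrays and -1.32 without untreated 2. None of the 11 passed the test in either fit; Klf1, a factor of erythroid maturation, passed with the block (0.0332). It read 9.23, 11.89 and 9.86 untreated and 6.75, 8.61 and 6.89 after G-CSF. Gfi1b, a repressor of erythroid and megakaryocyte precursors, read 7.72, 9.13 and 8.37 untreated and 5.89, 6.45 and 6.13 after G-CSF (adjusted p = 0.0554, 0.031 without untreated 2 and 0.0303 with the block). Tspan8, a tetraspanin, and Npy, or neuropeptide Y, were also highest in untreated 2 and lower on every G-CSF array than on any untreated one. Tspan8 read 7.56, 9.15 and 7.90 untreated and 5.61, 5.70 and 4.38 after G-CSF (0.0335 without untreated 2). Npy read 8.89, 11.63 and 9.73 untreated and 6.31, 7.70 and 7.61 after G-CSF (0.038 without untreated 2). All 11 measured B lineage genes had a negative change as well, with a median of -1.25 that was -0.42 without untreated 2, and 10 of the 11 were at least 1 higher in untreated 2. The part of these cells' RNA in the falls of Gfi1b, Tspan8 and Npy was not tested.

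Genes of bone formation showed no called change in either fit. The SE of each gene pools the spread within every group, those of the CD31+ sort included. Across the CD31+ arrays, untreated and G-CSF together, the bone matrix list averaged from 8.90 to 12.28. The lack of calls is therefore not evidence of no change. Of the 14 measured genes of bone matrix and mineralisation 0 rose and 0 fell, and 7 were at least 1 lower in untreated 2 than in both other untreated arrays. The list averaged 13.18 and 13.32 in untreated 1 and 3, 12.05 in untreated 2, and 12.77, 12.68 and 12.66 after G-CSF. Its median change was -0.09 with all arrays and -0.47 without untreated 2. Ibsp, or bone sialoprotein, read 15.16, 13.55 and 15.31 untreated and 15.12, 14.76 and 15.01 after G-CSF. Pth1r, the receptor of parathyroid hormone, read 13.75, 12.97 and 13.66 untreated and 13.05, 12.77 and 12.96 after G-CSF (-0.53 ± 0.60, and -0.77 ± 0.66 without untreated 2). The change of Pth1r was about as large as its SE in both fits, so a change of this size was not detectable in these fits. That SE includes the spread of the CD31+ arrays. On the GFP+ arrays every G-CSF value of Pth1r lay below untreated 1 and 3, while untreated 2 lay among them. Dmp1, a matrix protein of osteocytes, read 14.94, 11.65 and 15.38 untreated and 15.48, 14.92 and 14.97 after G-CSF. The 12 measured osteocyte genes and the 26 collagen chains had 0 calls in either fit, with medians of 0.15 and -0.02. Without untreated 2, in which 7 of the 12 osteocyte genes were at least 1 lower, the medians were -0.13 and -0.14, so the sign of the osteocyte median turned. Of 36 Wnt and 33 BMP and TGF-beta genes 0 were called with all arrays, and 2 and 1 fell without untreated 2. Among chondrocyte markers Col2a1 read 13.10, 11.59 and 12.21 untreated and 11.23, 9.87 and 9.91 after G-CSF, with an adjusted p of 0.435 and of 0.0238 with the block.

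**Figure D4:**
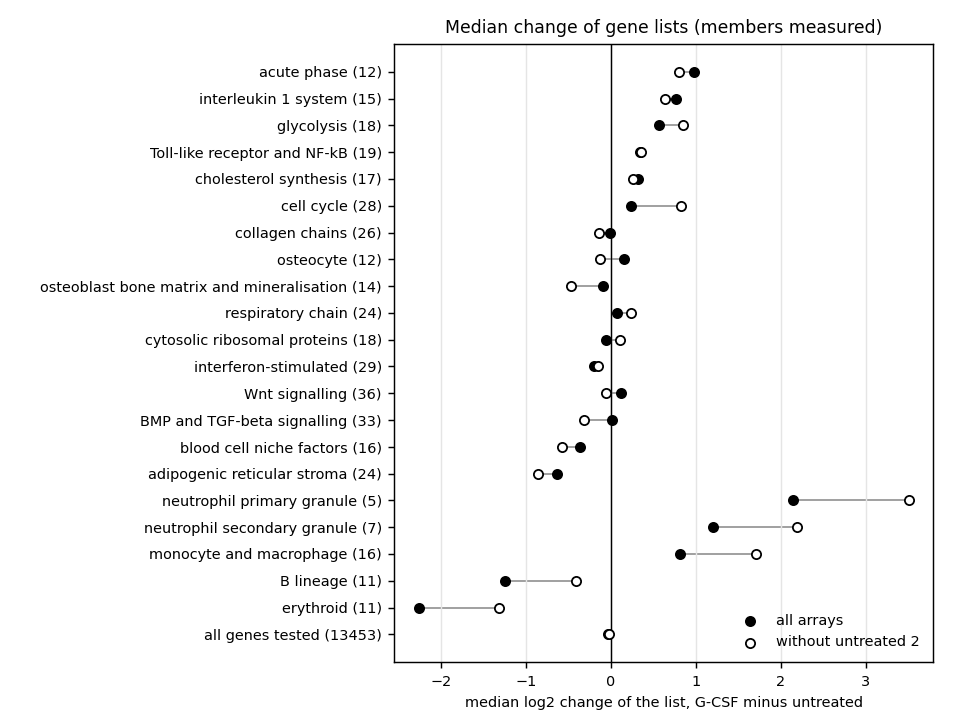
Median log2 change (G-CSF minus untreated) of 21 gene lists and of all genes tested, with measured members in brackets; filled marks use all arrays and open marks leave out untreated 2. The acute phase and reticular stroma medians move by under 0.25 between the fits, and the neutrophil, monocyte, B lineage and erythroid medians by over 0.8.

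The last comparison asked whether the change in the GFP+ sort differed from that in the CD31+ sort, whose samples it does not share. No gene was called by limma with all arrays, and 622 of 13453 had an unadjusted p under 0.05. Among the 31 called genes the smallest adjusted p of the difference was 0.457. Lipg had a change of 0.45 ± 0.51 in the CD31+ sort against 3.08 ± 0.59 in the GFP+ sort, and the difference of 2.63 ± 0.79 did not pass (adjusted p = 0.707). Without untreated 2 the difference was called for 21 genes (0.156%), of which 17 were at least 1 higher in untreated 2 than in both other untreated arrays. The other 4 were Adamts9, Plxna2, Tmem255a and Tmem273. Adamts9 had a change of 0.04 ± 0.20 in the CD31+ sort against -1.48 ± 0.19 (adjusted p of the difference 0.0323). Plxna2 had one of 0.85 ± 0.24 there against -1.28 ± 0.28 (0.0365), and Tmem255a of -0.37 ± 0.22 against -2.25 ± 0.26 (0.0365). Tmem273, chosen after its values were seen, had a change of -1.12 in the CD31+ sort and of 2.08 in the GFP+ sort without untreated 2 (0.0297). Of genes called in both sorts, Adipoq had changes of -2.31 ± 0.28 and -3.43 ± 0.24 and Ifitm1 of 3.44 ± 0.32 and 4.37 ± 0.27, with adjusted p of the difference of 0.867 and 1.00 with all arrays.

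**Figure D5:**
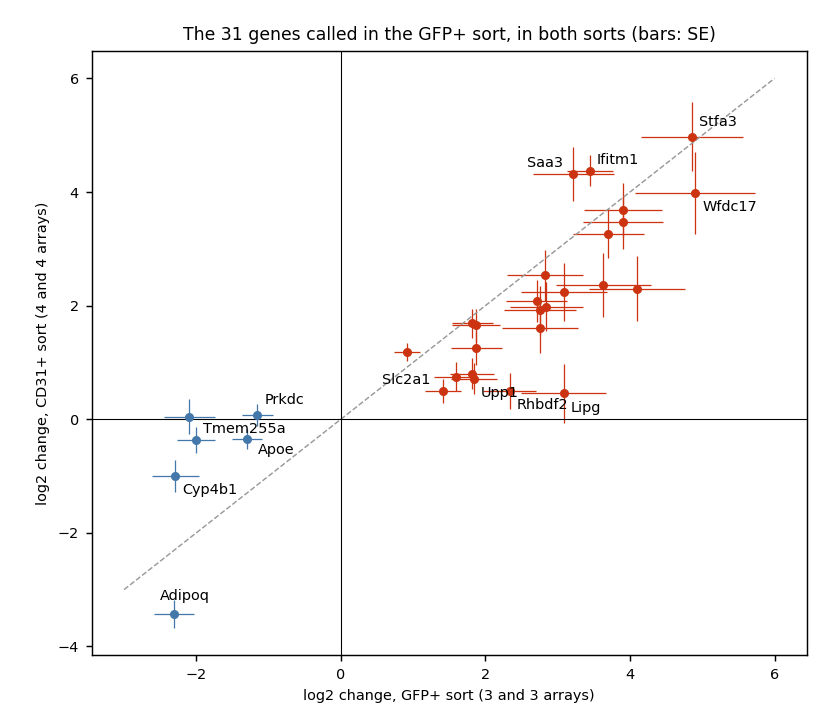
Log2 change after G-CSF in the GFP+ sort (x axis, 3 and 3 arrays) and in the CD31+ sort (y axis, 4 and 4 arrays) of the 31 genes called in the GFP+ sort; bars are SE and the dashed line marks equal changes. All 25 risen genes, in red, have a positive change in both sorts, and Lipg and Rhbdf2 lie far below the line, with differences that did not pass the test with all arrays.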

How the data were processed

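Per the submitters' processing notes the authors used Affymetrix Expression Console 1.1; the deposited values are intensities on a linear scale, 1 per probe set, and the summarisation algorithm is not given in the sources used here. Trimmed means of about 500.003 on all arrays show that they were scaled, so no further normalisation was applied. Labelled cRNA came from 100 ng of RNA per sample, per the labels' protocols. Of 45101 probe sets, 64 controls, 932 with several symbols and 9160 with none were left out. Values became log2 of intensity plus 16, the dimmest 0.333 of probe sets by mean over all arrays was dropped, and the brightest probe set stood for a gene. 4 group means were fitted to 14 arrays in limma 3.58.1 (R 4.3.3; eBayes with trend), with 2-sided tests and Benjamini-Hochberg adjustment over 13453 genes; the fit was tested on simulated data. Called means an adjusted p under 0.05.

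Deviations of same-numbered untreated and G-CSF arrays correlated at 0.223, 0.288 and 0.315. The titles number the replicates without explaining the numbers, so it is not known whether these pair the samples. The main fit used no block. Osteoblast arrays numbered 1 are printed with 1 decimal and the others with 7, and GAPDH 3 prime to 5 prime ratios ran from 5.88 to 20.8. Named genes are all called genes, 15 genes each way with the largest changes among those called without untreated 2 and not overlapping the other 2 untreated arrays, at most 4 called members of each of 67 lists (or 2 where none was called) and 19 measured key genes. Outside this rule Anxa1, Bcl3, Dmp1, Ebf3, Esm1, Hmgb2, Hp, Ibsp, Ifitm2, Ifitm3, Ifitm5, Iigp1, Il1b, Il4ra, Mt1, Nlrc5, Pdgfrb, Pfkp, Pgam1, Pth1r, Sparc and Tmem273 were chosen after their values were seen. Members and lists were chosen with earlier results of these data known. Symbols come from the platform's probe table, and 34754 of 34945 probe sets with 1 symbol were found in the current gene table. Alternatives covered scaling, filters, probe set choice, the prior, blocks, covariates and each array left out; 4 were added after the data were seen. The number of arrays limits the precision.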

Additional observations from a re-analysis of the deposited data

How the results depend on the processing

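No result changed direction after a call in any alternative run. Counts of genes that rose and fell, 25 and 6 with all arrays, were 2 and 0 with the osteoblast arrays alone, 45 and 19 with the replicate block, 154 and 24 with array weights, 5 and 3 at an adjusted p under 0.01, and 310 and 45 with the blood-cell score as a covariate. Over the osteoblast arrays left out in turn the rises ranged from 2 (G-CSF 1) to 426 (untreated 2), the falls from 2 (untreated 3, G-CSF 1) to 49 (untreated 2). The genes that differed between the sorts ranged from 0 to 21 over all arrays left out, with 21 without untreated 2 and 1 without untreated 3 or endothelial G-CSF 1. Without untreated 2 the rises, falls and genes that differed were 417, 77 and 19 with the replicate block and 516, 72 and 18 after quantile normalisation. A pseudocount of 64 gave 14 falls. Averaging probe sets by gene, the block and the blood-cell covariate gave 1 gene that differed each. Alternatives chosen after seeing the data gave 2 rises and 1 fall (osteoblast replicates 2 and 3 alone), 12 falls (number of decimals as a batch term), 42 rises (GAPDH ratio as a covariate), and 310 rises, 31 falls and 8 genes that differed (both arrays numbered 2 left out). A group reduced to 2 arrays borrows its spread from the other groups. Of the 31 calls the block ended those of Il1r2 and Prkdc and no other. The cause of these moves was not tested.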
